A study of Canis lupus familiaris with 10 samples.

Results

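The genes of major histocompatibility complex (MHC) class I presentation were followed in CCH, canine cutaneous histiocytoma, which arises in the skin from cells of the Langerhans cell lineage and regresses spontaneously. The 10 genes were chosen for their role in this pathway and not by a threshold on their values: the class I heavy chains DLA88 and DLA-64, the light chain B2M, the peptide transporter subunits TAP1 and TAP2, the loading chaperone TAPBP, the immunoproteasome subunits PSMB8, PSMB9 and PSMB10, and the class I transactivator NLRC5. Earlier results of these data were known when the genes were chosen. All 10 were found among the 23266 gene rows of the deposited table, and all 10 were among the 12397 genes tested.

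The study measured 3′ RNA-Seq (QuantSeq 3′) libraries of formalin-fixed, paraffin-embedded (FFPE) tumors from privately owned dogs of several breeds, without a treatment or a genetic alteration. The early group held 5 tumors of group 1 and the late group 5 tumors of group 3 in the staging of Cockerell and Slauson, and the labels describe the late tumors as lymphocyte enriched. The dogs were 0.5 to 5 years old in the early (n = 4 with an age given) and 1.5 to 9 years old in the late group (n = 5). RNA came from tumor tissue trimmed of its surroundings, and each library can hold tumor cells, leukocytes and skin.

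Nearly all nucleated cells carry class I molecules. The proteasome cuts cytosolic proteins into peptides, TAP1 and TAP2 together pump these into the endoplasmic reticulum, and tapasin (TAPBP) holds the empty heavy chain with B2M at the transporter until a peptide binds. Interferon-gamma induces the immunosubunits PSMB8, PSMB9 and PSMB10, which replace the constitutive subunits PSMB5, PSMB6 and PSMB7, while NLRC5 drives transcription of class I heavy chains, B2M and parts of the loading machinery. CD8-positive T cells read the loaded molecules. DLA88 is the classical, highly polymorphic class I gene of the dog, and DLA-64, DLA-12 and DLA-79 are class I genes regarded as nonclassical.

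The libraries held 2973125 to 4439709 reads assigned to genes. Values are normalized read counts, in which 3 reads corresponded to 2.36 to 3.22. QuantSeq 3′ yields 1 fragment per transcript, so that no correction for length was made where levels of different genes are set side by side. Whether genes differ in how completely their 3′ ends were captured or annotated was not tested. The fragment share over the DV200 length limit is a measure of RNA quality. According to the labels, it was 64.5 to 71.2% in the early and 71.2 to 75.8% in the late samples. These ranges meet only at 71.2%, and RNA extraction batches held samples of only 1 stage. An effect of RNA quality or of batch therefore cannot be told apart from one of stage. The labels list each sample with its own breed, and the p-values measure the spread between these samples.

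Both heavy chain genes of the set rose in late CCH by about the same amount, and no difference was detected for their light chain. A gene was called where the Benjamini-Yekutieli (BY) adjusted p did not exceed 0.05 and the log2 fold change (log2FC, the late minus the early mean of log2(value + 1)) was 1 or more in size. DLA88 and DLA-64 met this, 2 of the 10 genes, and none of the 10 was called lower (limma). Of all genes tested, 2.17% were called in either direction and 1.06% were called higher. DLA88 and DLA-64 can share evenly split reads, so they are not 2 independent observations in the counts of this paragraph. The edgeR test also called 2 higher and the DESeq2 test 4 higher, and neither called any of the 10 lower. Of all 12397 genes tested, edgeR called 81 higher and DESeq2 480. Without the adjustment, 6 of the 10 had a p of at most 0.05 and a higher level in late CCH, against 15.6% of all genes tested, and none had such a p with a lower level. In 5 genes, DLA88, DLA-64, TAP1, PSMB10 and NLRC5, every late library lay above every early library, which held for 5.91% of all genes tested. The median log2FC of the 10 genes was 0.69, and that of all genes tested was -0.004. Because the 10 genes were chosen with earlier results known, these comparisons with all genes are descriptions.

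**Figure D1:**
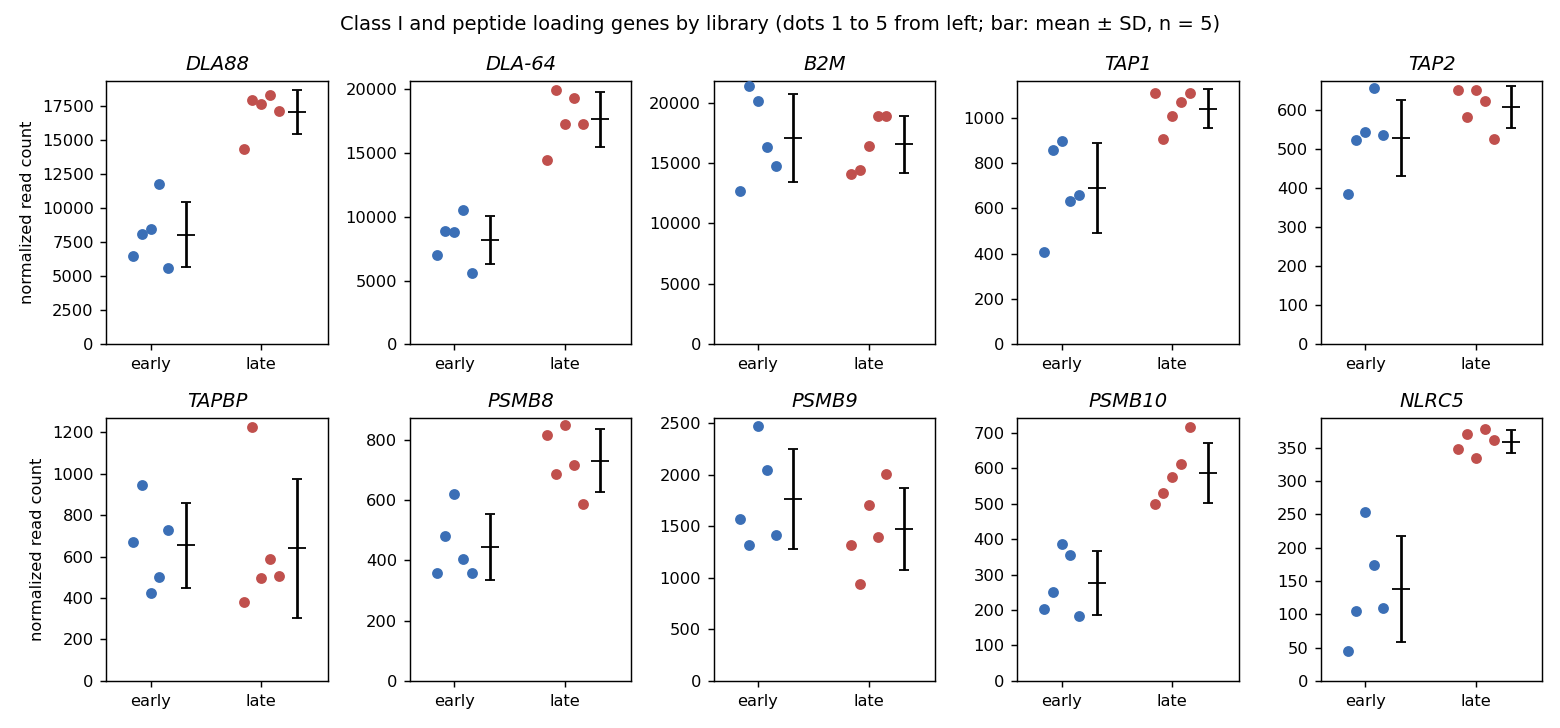
Normalized read count (vertical axis, from 0) of the 10 genes in the 5 early (blue) and 5 late (red) libraries, with libraries 1 to 5 from left to right within a stage and the mean ± SD beside them. The stages are separated for DLA88, DLA-64, TAP1, PSMB10 and NLRC5, and overlap for B2M, TAP2, TAPBP, PSMB8 and PSMB9.

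The heavy chain DLA88 had normalized read counts of 6451, 8049, 8435, 11744 and 5561 in early libraries 1 to 5. In late libraries 1 to 5 they were 14295, 17951, 17649, 18276 and 17087. The stages did not overlap, with early library 4 the highest of its stage and late library 1 the lowest. DLA88 rose 2.12-fold between the means, with a log2FC of 1.13 ± 0.20 (SE) and a BY-adjusted p of 0.0477 (limma). The call was kept in 1 of the 10 fits that left out a single library, the one without early library 4, with log2FC values of 1.00 to 1.27 over these fits, and it was lost without the filter on low values (adjusted p = 0.119, limma).

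DLA-64 had values of 7026, 8886, 8778, 10514 and 5611 in the early libraries. Its late values were 14482, 19940, 17254, 19345 and 17302. Again all late libraries lay above all early libraries, and early library 5 was the lowest of the 10. DLA-64 rose 2.16-fold (log2FC 1.14 ± 0.19 (SE), limma adjusted p = 0.0382). It was called in 2 of the 10 fits without a library, those without early library 2 or 4, and lost its call without the filter on low values (adjusted p = 0.097, limma).

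DLA88 and DLA-64 were close to equal in every library, with a ratio of DLA88 to DLA-64 of 0.90 to 1.12. Reads that mapped to several places were split evenly over them by the authors, so the values of these related genes are not independent observations. Summed into a single row before the fit, both genes together rose by 1.13 ± 0.21 on the log2 scale (SE, limma adjusted p = 0.0493). The sum lay between 11173 and 22258 in early and between 28777 and 37891 in late CCH.

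The other class I heavy chain genes of the table went different ways. DLA-12, at a lower level, had 1379, 1441, 1762, 1398 and 1790 in the early libraries. It had 2572, 3379, 4007, 3237 and 3960 in the late libraries, all of them above the early values. DLA-12 rose by 1.13 ± 0.16 on the log2 scale (SE, limma adjusted p = 0.0155) and was called in 7 of the 10 fits without a library. It was not called without early library 1, late library 2 or late library 4. Whether the DLA-12 row holds reads split with the related DLA88 or DLA-64 was not tested. DLA-79 overlapped between the stages, with 2143 to 5698 in early and 1727 to 6283 in late CCH, and its log2FC of -0.41 (95% confidence interval -1.13 to 0.31) did not pass. With DLA88, DLA-64, DLA-12 and DLA-79 added up in a single row, the log2FC was 0.94 ± 0.19 (SE), under the fold threshold and with an adjusted p of 0.0783 (limma).

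The light chain B2M, which every class I molecule shares, was the most abundant of the 10 genes in early CCH. Its early values were 12676, 21358, 20118, 16319 and 14746. Its late values were 14063, 14392, 16434, 18886 and 18917. The stages overlapped almost completely, and the log2FC of -0.03 had a 95% confidence interval of -0.44 to 0.38 (adjusted p = 1, limma), so that a change of the size seen in DLA88 lies outside this interval. Its sign turned with column total scaling (0.062) and without early library 2 or 3 or late library 1 or 2.

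In early CCH, B2M exceeded DLA-64 and DLA88 in each of the 5 libraries, with a mean 2.09 times that of DLA-64. In late CCH the 3 genes overlapped, and B2M was below DLA88 in 3 of 5 libraries. The ratio of the 4 summed heavy chain genes to B2M within a library, which does not depend on the scaling, was 1.44, 0.96, 1.23, 1.70 and 1.19 in early and 2.35, 3.02, 2.75, 2.31 and 2.18 in late CCH. All 5 late ratios were above every early ratio. The log2 ratio was higher in late CCH by 0.97, from 0.35 ± 0.31 to 1.32 ± 0.20 (SD, n = 5 each, exact two-sided permutation p = 0.00794, the lowest value that 5 against 5 libraries allow, Benjamini-Hochberg (BH) adjusted p = 0.0132 over the 5 ratios compared). This ratio was higher in late CCH without any single library as well, by 0.87 to 1.07.

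The transporter subunits TAP1 and TAP2 must pair to work. TAP1 had values of 405, 857, 898, 631 and 659 in early CCH. In late CCH it had 1107, 905, 1006, 1068 and 1110. The lowest late value (905) was just above the highest early value (898), and early library 1 was the lowest of all. The log2FC of 0.64 ± 0.20 (SE) had an unadjusted p of 0.00685 and an adjusted p of 0.46 (limma), so TAP1 was not called.

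TAP2 had values of 385, 524, 544, 658 and 536 in early and 652, 582, 652, 625 and 527 in late CCH. The stages overlapped and its log2FC was 0.22 (95% confidence interval -0.11 to 0.54, adjusted p = 1, limma). The ratio of TAP1 to TAP2 was 0.96 to 1.65 in early and 1.54 to 2.11 in late CCH, and 3 late libraries exceeded the highest early one. Its log2 value was 0.42 higher in late CCH, which did not pass (exact two-sided permutation p = 0.0794, BH-adjusted p = 0.0992).

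TAPBP, the chaperone tapasin, had 672, 946, 424, 499 and 726 in early CCH. It had 380, 1223, 498, 586 and 507 in late CCH. Late library 2 stood apart at more than the level of any other library, and the remaining late values were within the early range or below it. The log2FC was -0.10 with a 95% confidence interval of -0.75 to 0.54 (adjusted p = 1, limma), and its sign turned without early library 2 or late library 1.

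The 3 immunosubunits had log2FC values of 1.14 (PSMB10), 0.74 (PSMB8) and -0.26 (PSMB9), and none was called. PSMB10 separated the stages, with 203, 250, 386, 355 and 185 in early CCH. Its late values were 499, 532, 577, 614 and 717. All late libraries were above all early ones, the means differed 2.13-fold and the log2FC was 1.14 ± 0.21 (SE), but the adjusted p of 0.0562 (limma) missed the threshold. It passed with TMM scaling (adjusted p = 0.049), column total scaling (0.0376), a pseudocount of 5 (0.0477) and a filter on a mean of at least 50 (0.0481). It also passed in the DESeq2 test and, of the fits without a library, only without early library 3. In the RefSeq order of the more recent dog assembly, PSMB10 lies between LCAT and CTRL. CTRL, at only 14 to 31.6 in early and 35.7 to 72.6 in late CCH, had a log2FC of 1.56 (adjusted p = 0.0757, limma), and whether reads were shared between these adjoining genes was not tested.

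PSMB8 had values of 358, 481, 621, 406 and 356 in early and of 816, 685, 847, 717 and 588 in late CCH. The highest early library, number 3, was above the lowest late library, number 5. Its log2FC of 0.74 ± 0.18 (SE) had an unadjusted p of 0.00117 and an adjusted p of 0.163 (limma). PSMB9, by far the most abundant of the 3, had 1577, 1317, 2479, 2045 and 1413 in early and 1320, 945, 1705, 1396 and 2006 in late CCH. The stages overlapped, and the log2FC was -0.26 (95% confidence interval -0.75 to 0.22, adjusted p = 1, limma). TAP2, PSMB8, TAP1 and PSMB9 follow each other directly in the same RefSeq order, and across this block the log2FC was 0.22, 0.74, 0.64 and -0.26.

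Each immunosubunit was set against the constitutive subunit whose place it takes. PSMB8 over PSMB5 was 0.37, 0.48, 0.86, 0.50 and 0.37 in early CCH and 1.41, 1.06, 1.54, 1.43 and 0.99 in late CCH. The late ratios were all above the early ones, and PSMB8 was below PSMB5 in all 5 early libraries and above it in 4 of 5 late libraries. The log2 ratio was 1.36 higher in late CCH (exact two-sided permutation p = 0.00794, BH-adjusted p = 0.0132). PSMB5 itself was lower in all late than in all early libraries, with means of 889 and 574 and a log2FC of -0.63 (adjusted p = 0.102, limma), so that the ratio holds a difference of either sign in its terms.

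PSMB10 over PSMB7 was 0.36, 0.63, 0.75, 0.67 and 0.38 in early and 1.39, 0.92, 1.28, 1.36 and 1.80 in late CCH. It also separated the stages, with a log2 ratio that was 1.31 higher in late CCH (exact two-sided permutation p = 0.00794, BH-adjusted p = 0.0132). PSMB9 over PSMB6 was 2.77 to 5.98 in early and 2.18 to 4.63 in late CCH, and its log2 values differed by 0.002 (exact two-sided permutation p = 0.992). Normalized read counts of PSMB9 thus exceeded those of PSMB6 in each of the 10 libraries, while those of PSMB8 and PSMB10 exceeded their counterparts in 4 late libraries each. Leaving out any single library kept the difference of PSMB8 over PSMB5 between 1.26 and 1.56 and that of PSMB10 over PSMB7 between 1.17 and 1.44, with BH-adjusted exact p-values of at most 0.0265.

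**Figure D2:**
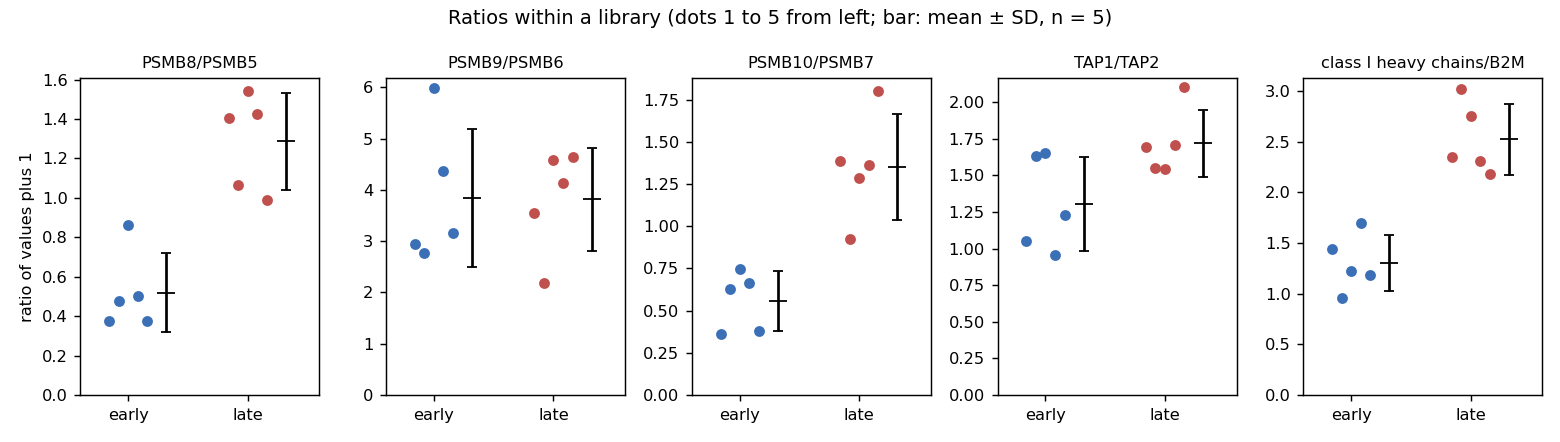
Ratio of 2 levels within a library (vertical axis, from 0; both values plus 1) for 5 pairs in early (blue) and late (red) CCH, with libraries 1 to 5 from left to right and the mean ± SD beside them. Late ratios lie above all early ratios for PSMB8/PSMB5, PSMB10/PSMB7 and the 4 class I heavy chain genes over B2M, and overlap with the early ratios for PSMB9/PSMB6 and TAP1/TAP2.

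NLRC5, the transactivator, was the least abundant of the 10 genes and had the highest log2FC. Its early values were 44.7, 105, 254, 174 and 110. Its late values were 348, 371, 335, 378 and 362. Early libraries varied widely, with a coefficient of variation of 57.9% (counting error alone gives 8.09%), and the late libraries were nearly level, with 4.87% (counting error 5.27%). The difference in spread was not tested. The log2FC of 1.59 ± 0.35 (SE) had an unadjusted p of 0.000656 and an adjusted p of 0.117 (limma), so that NLRC5 was not called. It passed with BH adjustment (0.0117), in the DESeq2 test (0.0147) and without early library 3, the highest of its stage (0.0392).

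Levels spanned a wide range. In early CCH the order of the means was B2M, DLA-64, DLA88, PSMB9, TAP1, TAPBP, TAP2, PSMB8, PSMB10 and NLRC5. Between neighbors in this order, the ranges overlapped for DLA-64 and DLA88 and for each pair from TAP1 to NLRC5, and they were separate at the steps from B2M to DLA-64, DLA88 to PSMB9 and PSMB9 to TAP1. By mean level over the 10 libraries, B2M ranked 10, DLA-64 16 and DLA88 17 among all 23266 genes, and NLRC5 ranked 2520. The 10 genes took 0.89 to 1.33% of all reads in early and 1.56 to 1.96% in late CCH.

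The lowest and highest early values fell in different libraries for different genes. Early library 1 had the lowest early value of B2M, TAP1, TAP2 and NLRC5, and early library 5 that of DLA88, DLA-64, PSMB8 and PSMB10. Early library 3 had the highest early value of TAP1, PSMB8, PSMB9, PSMB10 and NLRC5, and the lowest of TAPBP. The highest early value of DLA88, DLA-64 and TAP2 was in early library 4. That of B2M and TAPBP was in early library 2, which had the lowest of PSMB9. In late CCH, library 1 was lowest for 5 genes, DLA88, DLA-64, B2M, TAPBP and PSMB10, and highest for TAP2.

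The neighboring pathway was counted in lists that were written with earlier results known. Of its 46 genes tested, 1 was called higher and 1 lower (limma), where 2.17% of all genes tested were called in either direction. Among the 5 other class I and class I-like heavy chains tested, DLA-12 rose and HFE, a class I-like regulator of iron uptake that binds B2M, fell. HFE had a mean of 309 ± 88.6 in early and 103 ± 22.6 in late CCH (SD, n = 5 each), with all late values below all early values. Its log2FC was -1.55 ± 0.24 (SE, limma adjusted p = 0.0251). HFE was called in 5 of the 10 fits without a library and lost its call without early library 1 or 5 or late library 2, 4 or 5. FCGRT, the heavy chain of the neonatal Fc receptor, reached a log2FC of 1.25, the highest among these, (adjusted p = 0.217, limma).

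Of 15 genes for peptide supply and loading in the endoplasmic reticulum, none was called by limma or edgeR. DESeq2 called 1 (TAPBPL) higher, against 480 of all 12397 genes tested. Of the 15, 4 had an unadjusted p of at most 0.05 (limma). In either direction, 30.9% of all genes tested had one, so that this count is near the background. BCAP31, a membrane protein that escorts cargo such as class I molecules out of the endoplasmic reticulum, passed the adjusted p with 0.0256 but had a log2FC of 0.81, under the fold threshold. The highest log2FC was that of TAPBPL, a relative of tapasin, with 1.00 and values of 37.6 to 62.3 in early and 79.5 to 144 in late CCH (adjusted p = 0.136, limma). The lowest was that of the aminopeptidase LNPEP with -0.56 (adjusted p = 1, limma). Calreticulin (CALR), a chaperone of the loading complex, had 2794 in early and 2472 in late CCH on average (log2FC -0.17, adjusted p = 1, limma).

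Among 9 proteasome partners of the immunosubunits, none was called by limma, edgeR or DESeq2, and 6 had an unadjusted p of at most 0.05 (limma), 2 of them higher and 4 lower in late CCH, against the same 30.9% of all genes. PSME2, a subunit of the interferon-inducible activator PA28, had the highest log2FC with 0.67 (adjusted p = 0.319, limma) and PSMB5 the lowest with -0.63. Among 17 regulators of class I genes, none was called by limma or edgeR. DESeq2 called 1 higher, against 480 of all 12397 genes tested. Of the 17, 7 had an unadjusted p of at most 0.05 (limma), again against 30.9% of all genes. The highest log2FC among the regulators was that of IFNG, the gene of interferon-gamma, with 2.19, at 0 to 20.5 in early and 11.2 to 138 in late CCH (adjusted p = 1, limma). The interferon-driven factor IRF1 had a log2FC of 1.21 with no overlap of the stages (adjusted p = 0.188, limma), and IFNGR1 the lowest of the list with -1.07 (adjusted p = 1, limma). The median log2FC was 0.19, -0.12, -0.27 and 0.15 over the heavy chain, peptide supply, proteasome and regulator lists.

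**Figure D3:**
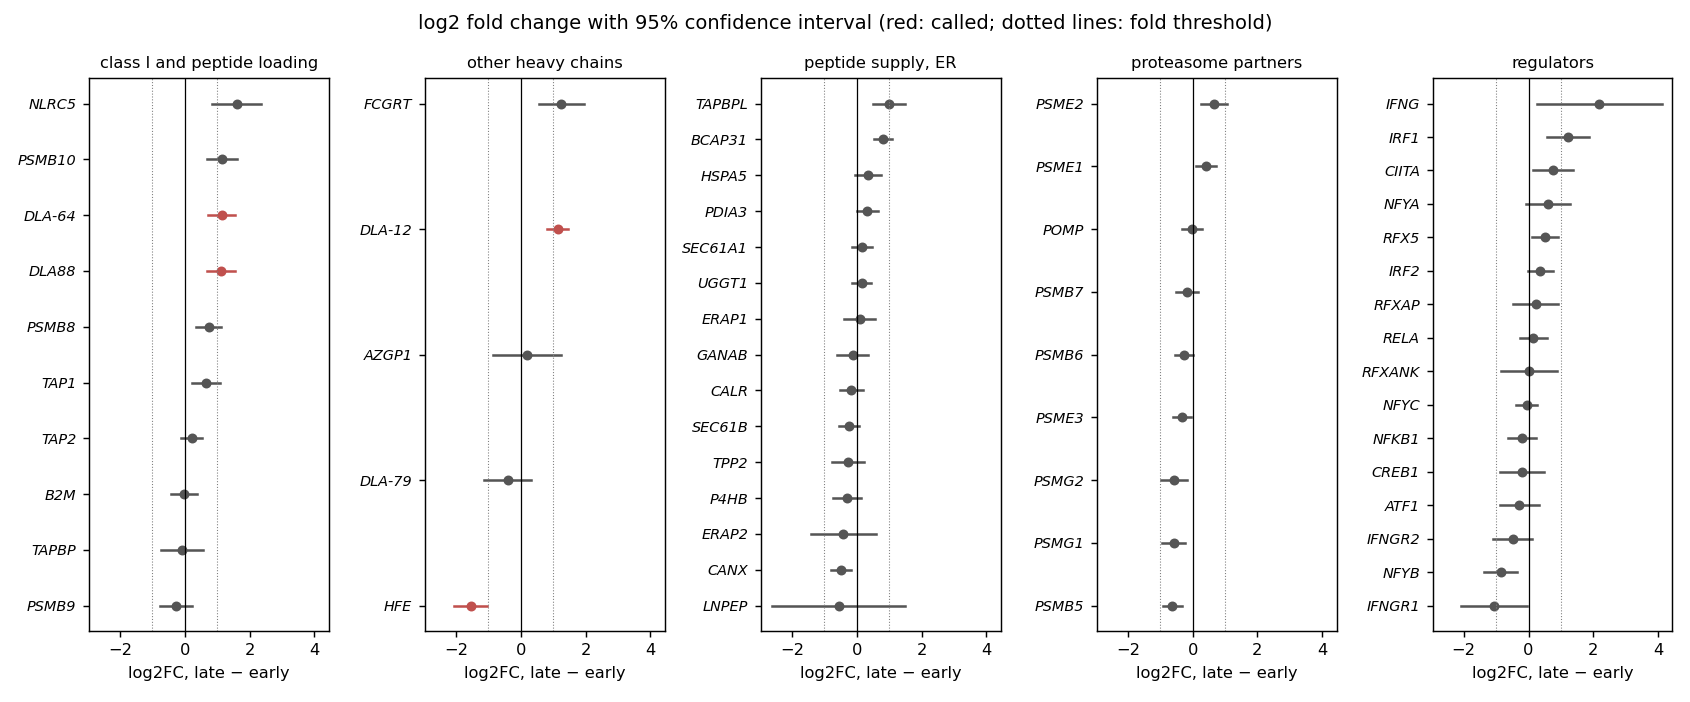
log2FC (late minus early, horizontal axis) with 95% confidence interval for the 10 genes and the 4 pathway lists (1 regulator is not shown), with called genes in red and the fold threshold as dotted lines. DLA88, DLA-64 and DLA-12 are called higher and HFE lower, and B2M, TAP2, TAPBP and PSMB9 have intervals that include 0.

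The summed levels of T-cell, B-cell and cytotoxic markers were higher in all late than in all early libraries. The summed level of 10 T-cell markers was 89.5 to 2730 in early and 4308 to 6750 in late CCH, and 10 of 10 had a higher mean in late CCH, with CD5 at 0 in a library. None of the 10 was called by limma or edgeR, 4 were called by DESeq2, and 10 had an unadjusted p of at most 0.05 (limma). Of all genes tested, 15.6% had such a p with a higher level in late CCH, and DESeq2 called 480 of 12397 higher. With BH adjustment, limma called 10 of the 10 T-cell markers higher, against 685 of 12397 genes. The sum of 5 B-cell markers was 47.2 to 203 in early and 386 to 2247 in late CCH, with 5 of 5 higher and MS4A1, CD79B and PAX5 at 0 in at least 1 library. The sum of 5 cytotoxic markers was 135 to 2570 in early and 2850 to 7353 in late CCH, with 5 of 5 higher. GZMB, also listed, had no row under its symbol. Of the B-cell and of the cytotoxic markers, 0 were called by limma or edgeR and 3 each by DESeq2. An unadjusted p of at most 0.05 (limma) was found for 5 and 4 of them, against the same shares of all genes. Limma with BH adjustment called 3 of the B-cell and 4 of the cytotoxic markers higher. The Langerhans and dendritic cell sum over 6 genes was 697 to 2224 in early and 656 to 1005 in late CCH. CD207 and ZBTB46, also listed, had no row under these symbols and are not part of it. In that list 5 of 6 genes had a lower mean in late CCH, and CD1A8 was at 0 in 1 late library. FLT3 fell with a log2FC of -2.89 (limma adjusted p = 0.0434). In the list, edgeR called 0 lower and 0 higher. DESeq2 called 2 lower and 1 higher, and so did limma with BH adjustment. Of all 12397 genes tested, DESeq2 called 330 lower and limma with BH adjustment 436. CCR7 went the other way, with 2.15 to 39.1 in early and 73.4 to 201 in late CCH, and every late library was above every early one. Macrophage markers, with MARCO at 0 in a library, ranged from 2349 to 10504 in early and 5681 to 11214 in late CCH, and keratinocyte markers from 830 to 17522 and from 617 to 8232. Endothelial markers ranged from 432 to 792 in early and 539 to 1090 in late CCH, and fibroblast markers from 7235 to 59653 and from 10304 to 35149. The mean was higher in late CCH for 6 of 8 macrophage, 3 of 4 endothelial, 0 of 6 keratinocyte and 0 of 5 fibroblast markers. An unadjusted p of at most 0.05 with a higher level was found for 4 of 7 macrophage and 2 of 4 endothelial markers tested (limma). No keratinocyte or fibroblast marker had such a p in either direction. In tissue RNA, fewer cells of a type and less RNA per cell cannot be told apart, and the part of these cells in the class I values was not tested.

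The early libraries also differed in their T-cell markers, and none of the 10 genes followed the order of the T-cell sum exactly. The T-cell sums of early libraries 1, 5, 2, 4 and 3 were 89.5, 293, 931, 1919 and 2730. NLRC5, PSMB10, DLA88 and B2M are given in this order, and were chosen for it after their values were seen. NLRC5 had 44.7, 110, 105, 174 and 254, and PSMB10 had 203, 185, 250, 355 and 386. DLA88 had 6451, 5561, 8049, 11744 and 8435, with early library 4 above early library 3. B2M had 12676, 14746, 21358, 16319 and 20118, with its highest value at the middle of the T-cell order. In late CCH, where the T-cell sum was 4308 to 6750, NLRC5 and DLA88 varied within 335 to 378 and 14295 to 18276.

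**Figure D4:**
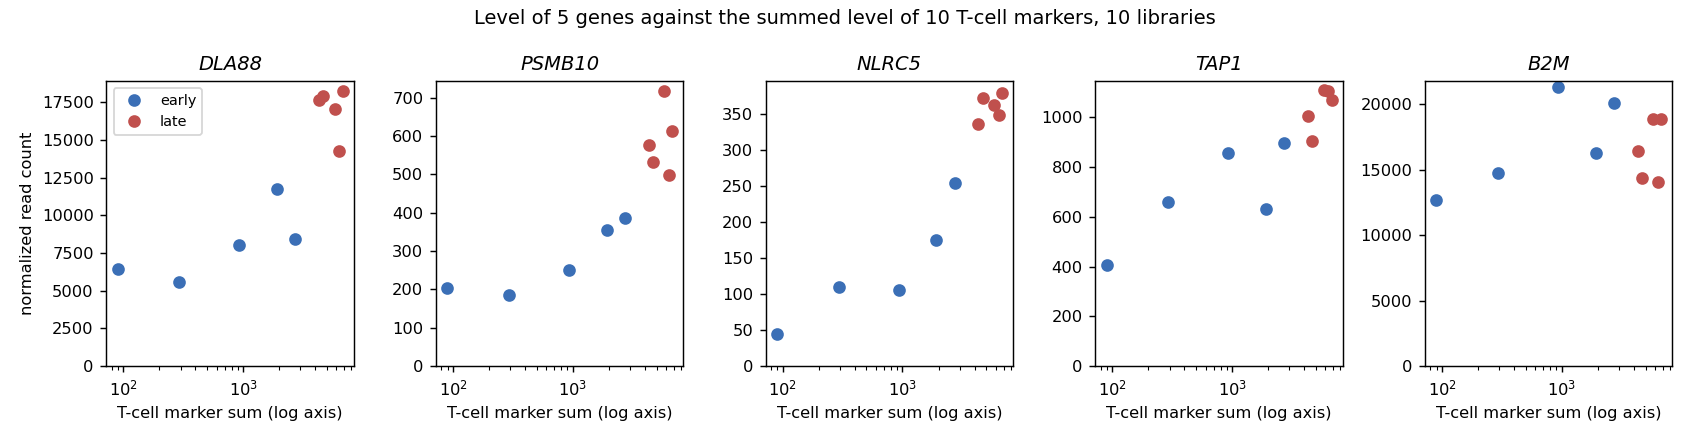
Normalized read count (vertical axis, from 0) of DLA88, PSMB10, NLRC5, TAP1 and B2M against the summed level of 10 T-cell markers (horizontal log axis) in early (blue) and late (red) libraries. Early libraries spread from 89.5 to 2730 on the T-cell axis and late libraries from 4308 to 6750, and the late values of B2M (14063 to 18917) lie within its early range (12676 to 21358).

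To find genes with the most similar pattern, the stage mean was removed from each log2 value, and the mean of the 10 genes in each library was compared with every other gene tested whose symbol does not start with LOC, 11108 in all. The most similar were PTPRCAP, PRKCH, IKZF3, CXCR4 and CD3D, with Pearson coefficients of 0.97, 0.96, 0.96, 0.96 and 0.95 over the 10 libraries, and Spearman coefficients of 0.89 to 0.99. These were picked as the highest of many, and no test was made. PTPRCAP binds the leukocyte antigen CD45, IKZF3 is a lymphocyte transcription factor, CXCR4 a chemokine receptor of leukocytes and CD3D a chain of the T-cell receptor complex. Without early libraries 1 and 3, which lay farthest from the median, the Pearson coefficients were 0.87 to 0.93. Of the 10 genes themselves, each of which is part of the common mean, NLRC5 and PSMB10 had the highest Pearson coefficients with it (0.89 and 0.87) and TAPBP the lowest (-0.19). This order rested on early libraries 1 and 3: without them DLA-64 and DLA88 were highest (0.96 and 0.95), NLRC5 had 0.60 and TAPBP 0.06.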

How the data were processed

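QuantSeq 3′ libraries of 5 early and 5 late CCH were analysed. Per the labels and the study's methods, the authors trimmed reads with Cutadapt, aligned them with STAR to CanFam3.1 with the RefSeq annotation, counted them per gene with featureCounts in a pair of rounds, the second on genes extended at the 3′ end, and split multi-mapped reads evenly over their places. Tool versions are not given in the sources used here. The deposited values are a signal, a normalized read count: reads divided by 1 size factor per library. Dividing the 166096 values above 0 by the smallest of their library, taken as 1 read, gave whole numbers for 100% (tolerance 1e-06). These numbers, called reads here, entered the count tests. Reads split over places can give fractions, and whether the counts were rounded before normalization was not tested. Column names show the stage but not the sample, so libraries are numbered 1 to 5 in table order within a stage, and the other 11 columns of the table match no sample and were not used.

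Genes that reached 10 in 5 or more libraries entered limma 3.58.1 in R 4.3.3 (mean-variance trend, log2(value + 1), all 10 libraries, no covariates), and p-values were BY-adjusted over the 12397 genes. Calls needed an adjusted p not above 0.05 and an absolute log2FC of 1 or more. Ratios were compared with exact two-sided permutation tests over 252 assignments, BH-adjusted over 5 ratios. edgeR 4.0.16 (quasi-likelihood) and DESeq2 1.42.0 (Wald) on the recovered reads, BH adjustment, other scalings, filters and pseudocounts, summed class I rows and the omission of each library were alternatives. The fit was tested on simulated counts with planted changes larger than those of DLA88 and DLA-64, so that test does not cover changes near the fold threshold. The members and lists were chosen with earlier results of these data known. All 10 genes are named. Of each pathway list, called genes and those with the highest and lowest log2FC are named. CALR, BCAP31 and IRF1 were added after their values were seen, as was CTRL as a neighbor of PSMB10. Of the 23266 symbols, 19767 and all 10 members were matched in the RefSeq table of UU_Cfam_GSD_1.0, used for gene order only. The values of 1 regulator are not reported here. The reads carry no molecular identifiers, so counting errors do not cover amplification.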

Additional observations from a re-analysis of the deposited data

Results flagged for a closer look

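The 10 genes and 5 ratios were searched for a library standing apart within a stage, 30 sets of 5 values in all. In 2 of them an extreme value was separated from the next by more than 0.71 of the whole range, Dixon's 95% limit, and about 1.5 such sets would come from chance alone. TAPBP in late library 2 was at 1223 and the next late library at 586, a relative gap of 0.756. PSMB8 over PSMB5 in early library 3 was 0.86 and the next early library 0.50, a relative gap of 0.735. Early library 3 also had the highest T-cell marker sum of its stage, 2730. Its part in this ratio was not tested.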

How the results depend on the processing

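No paired analysis was possible because early and late tumors came from different dogs and no column name holds a replicate number. Of the genes called higher among the 10 (main count 2), 4 were called with BH adjustment and 4 with DESeq2 (DLA88, DLA-64, PSMB10 and NLRC5), 0 without a filter on low values, and 0 to 2 without a single library. Over all genes, 131 were called higher and 138 lower. These counts were 685 and 436 with BH adjustment and 480 and 330 with DESeq2, and 81 were called higher with edgeR. Without a single library they ranged from 18 to 144 and from 29 to 153. In the pathway lists, 1 gene was called higher and 1 lower. The count higher was 3 with BH adjustment, 3 with DESeq2, 2 without the fold threshold and 0 with the 4 class I rows summed, where DLA-12 is part of the sum, and without a single library the counts were 0 to 2 and 0 to 1. BH is less strict than BY by construction, and the cause of the other changes was not tested. B2M turned to 0.062 with column total scaling, which shifted the median log2FC of all genes by 0.09, and ranged from -0.13 to 0.060 without a single library. TAPBP ranged from -0.37 to 0.054 and the log2 ratio of PSMB9 to PSMB6 from -0.10 to 0.19. The other 4 ratios kept their direction and their side of the threshold under both other pseudocounts and without any single library, and PSMB8, PSMB9, TAP1 and TAP2 kept their direction and stayed uncalled under each alternative run. For PSMB8 with BH adjustment (limma adjusted p = 0.0163) and DESeq2 (0.0452), and for TAP1 with BH adjustment (limma adjusted p = 0.046), it was the fold threshold that they missed. The lowest read number of a member in a library was 47, for NLRC5, and the part of depth in the calls was not tested.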
